A study of Drosophila melanogaster with 3 samples.

Results

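Lone first promoters held the summits of 1465 peaks, or 25.6% (exact 95% interval 24.5 to 26.7) of the set that passed the authors' irreproducible discovery rate (IDR) threshold, and the other 4259 IDR peaks lay elsewhere. A summit is the position of highest enrichment in a peak. It was kept when it lay within 500 bp of the most upstream annotated start of a protein-coding gene. It was left out when it also lay within 500 bp of a divergent protein-coding start, meaning a start with the start of another protein-coding gene pointing away from it on the opposite strand within 500 bp. The same rule on the strongest peaks of each replicate, as many as the IDR set holds, kept 1460, 1534 and 1447 peaks in replicates 1, 2 and 3, or 25.9% ± 0.82 of a list (SD, n = 3). The other IDR peaks were 776 at divergent promoters, 596 at internal promoters only, 159 at promoters of non-coding genes only and 2728 away from promoters. The data are chromatin immunoprecipitation sequencing for the product of the Drosophila melanogaster gene CG13296 (Prdm13, FBgn0035687), carried out through a green fluorescent protein (GFP) tag. There was 1 group of 3 biological replicates, all whole embryos of mixed sex aged 6 to 18 hours from the CG13296-GFP line, a transgenic strain that stably expresses the protein with GFP at its C-terminus. All 3 replicates were set against 1 shared control file, and chromatin was sonicated to fragments of 200 to 800 bp. The description of the libraries calls them input controls, against their assay title, antibody tag and derivation records, and an age tag holds an impossible number of hours. The sources used here give no read numbers, and the depth is unknown. Whole embryos mix all tissues, so a peak does not say in which cells the protein was bound, and binding of the untagged protein was not analysed here.

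PRDM13 belongs to the PR domain family of zinc-finger proteins, which bind DNA through zinc fingers and in many cases act as transcriptional repressors. In vertebrates PRDM13 is known for its part in specifying neurons of the spinal cord and retina, together with basic helix-loop-helix (bHLH) factors. Fly promoters fall broadly into kinds that carry different core elements. Broadly expressed genes often carry the DNA replication-related element (DRE), the site of M1BP or the Ohler 6 and 7 elements, and ribosomal protein genes start at a polypyrimidine TCT initiator. Regulated genes more often carry a TATA box, an Initiator and GAGA sites.

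The bases upstream of the first start are shown for 6 genes, within 100 bp of the summit and 5′ to 3′ on the strand of the gene. Ugalt (chrX:2703853-2703977, minus strand), CG14100 (chr3L:19590525-19590720, minus strand) and Gapdh2 (chrX:15867879-15868079, plus strand) had the 3 highest signals of all lone first promoters. The next are eEF1gamma (chr3R:29220039-29220171, plus strand), shown for a DRE, and RpS9 (chr3L:9511532-9511574, minus strand), shown for an M1BP site upstream of its start. Glyp (chr2L:2130524-2130724, plus strand), which encodes glycogen phosphorylase, is shown for the word CACAGTGG. Capitals mark the DRE (TATCGATA), the M1BP site (GGTCACACT), the TATA word (TATAAA), CACAGTGG and TGGGCGTA, each on either strand. Build dm6, sequence of the release 6 genome.
Ugalt: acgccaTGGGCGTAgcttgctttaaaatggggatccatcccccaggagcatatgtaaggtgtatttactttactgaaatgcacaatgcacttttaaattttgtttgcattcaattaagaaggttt
CG14100: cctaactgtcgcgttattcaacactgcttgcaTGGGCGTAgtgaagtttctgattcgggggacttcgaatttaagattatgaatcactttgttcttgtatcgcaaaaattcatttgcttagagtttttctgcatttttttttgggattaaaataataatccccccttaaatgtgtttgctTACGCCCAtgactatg
Gapdh2: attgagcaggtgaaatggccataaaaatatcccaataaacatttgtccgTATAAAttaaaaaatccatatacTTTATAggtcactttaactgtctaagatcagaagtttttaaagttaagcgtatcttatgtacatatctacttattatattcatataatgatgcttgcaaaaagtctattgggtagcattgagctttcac
eEF1gamma: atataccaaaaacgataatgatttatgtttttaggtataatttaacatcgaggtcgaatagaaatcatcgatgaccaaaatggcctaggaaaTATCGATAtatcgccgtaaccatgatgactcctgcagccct
RpS9: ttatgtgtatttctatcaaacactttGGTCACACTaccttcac
Glyp: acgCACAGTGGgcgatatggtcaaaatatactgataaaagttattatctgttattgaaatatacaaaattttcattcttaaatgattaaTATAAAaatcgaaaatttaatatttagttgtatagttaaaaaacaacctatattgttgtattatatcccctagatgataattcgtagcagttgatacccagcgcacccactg

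The strongest lone first promoter peaks recurred near the top of every replicate's list, where rank 1 is the highest signal. Ugalt, which encodes a UDP-galactose transporter, ranked 2 in the IDR set and 1, 1 and 4 in replicates 1, 2 and 3, with its summit 25 bp upstream of the start. CG14100 ranked 5 in the IDR set and 4, 4 and 7 in the replicates, with its summit 96 bp upstream. Gapdh2, a gene of the glycolytic enzyme glyceraldehyde-3-phosphate dehydrogenase, ranked 6 and then 7, 5 and 6, with its summit 166 bp upstream. These genes were followed by mRpL41, a protein of the mitochondrial ribosome (rank 8), CG18549 (rank 11), CG1635 (rank 12), ph-p, a Polycomb group gene (rank 27), and Tina-1 (rank 30). The last of the 12 strongest were RluA-1, which encodes a pseudouridine synthase (rank 38), CG31145 (rank 41), CG7841 (rank 42) and elav, an RNA-binding protein of neurons (rank 43). None of the 12 fell below rank 71 in any replicate. In 11 of the 12 the summit lay upstream of the start, 8 of them 100 to 250 bp upstream, and the exception was ph-p at 406 bp downstream.

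Support by the replicates varied among the peaks. Of the 1465, 917 (62.6%, 60.1 to 65.1) had a summit in the equally long top lists of all 3 replicates within 200 bp, 400 of 2 replicates, 141 of 1 and 7 of none. The authors chose the IDR set from these replicates, so the support is not independent. Across the peaks found in both relaxed lists, Spearman's rho between ranks was 0.709 in replicates 1 and 2 (n = 1406), 0.642 in 1 and 3 (n = 1434) and 0.705 in 2 and 3 (n = 1414), over peaks that share libraries and the control. A peak's rank in a replicate is that of the strongest summit of its relaxed list within 200 bp. Neighbouring peaks can thus share a rank, and a weak peak can take that of a stronger neighbour. The peak of median strength, at Ptpmeg2, a tyrosine phosphatase gene, ranked 2959 in the IDR set and 2785, 3977 and 3054 in the replicates. The weakest, at Bet3, ranked 5722, and 5259, 5645 and 8666 in the replicates. The strongest without support were those of mEFG1 (rank 4982), ey, the Pax6 factor of eye development (rank 5005), and scrt, a zinc-finger repressor of neurons (rank 5229). They ranked between 6047 and 7933 in the replicates' own lists. As a class, lone first promoter peaks were weaker than divergent ones. Their median signal percentile among all peaks was 48.2, 51.1 and 47.7 in replicates 1, 2 and 3 (IDR set 48.3), against 58.0, 58.8 and 59.4 at divergent promoters (IDR set 58.9). The difference was -9.75 ± 2.02 percentile points (SD, n = 3, exact two-sided sign-flip permutation p = 0.25). With 3 replicates this exact test cannot give less than p = 0.25, and that holds for each one below, adjusted or not. Peaks away from promoters had percentiles of 48.1, 45.96 and 46.9 in the replicates, which the lone class exceeded by 0.0612, 5.12 and 0.786.

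Summits sat upstream of the start more often than downstream. In bp from the start, counted negative upstream, the IDR set had a median position of -88 and quartiles of -211 and 39, and 67.4% (64.9 to 69.8) were upstream. The share upstream was 66.8%, 64.9% and 67.1% in replicates 1, 2 and 3, higher than 50% in all 3 by 16.2 ± 1.21 percentage points (SD, n = 3, exact sign-flip permutation p = 0.25). The replicates differed in how close to the start the summits lay. Medians were -64, -68 and -108 bp, and 24.9%, 22.2% and 15.4% of summits lay within 50 bp of the start in replicates 1, 2 and 3, so replicate 3 had the fewest there. At divergent promoters the median was -55.5 bp, and -55, -45 and -64 bp in the replicates. At internal promoters only it was -149 bp, and -127, -137.5 and -175 bp in the replicates. In each of these classes too, replicate 3 lay farthest upstream. Divergent positions were taken from the nearer start of a pair within 500 bp of each other, which limits how far upstream a summit can lie. All upstream summits there (69.2%) lay within 250 bp of that start, so the divergent and lone medians are not like for like. By place, 823 of the 1465 summits (56.2%) were upstream and outside any other gene, 164 (11.2%) upstream inside another gene, 410 (28.0%) in an exon of the gene and 68 (4.64%) in an intron. Coding sequence of the gene itself held 13 (0.887%, 0.473 to 1.51), and that of another gene held 0.

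**Figure D1:**
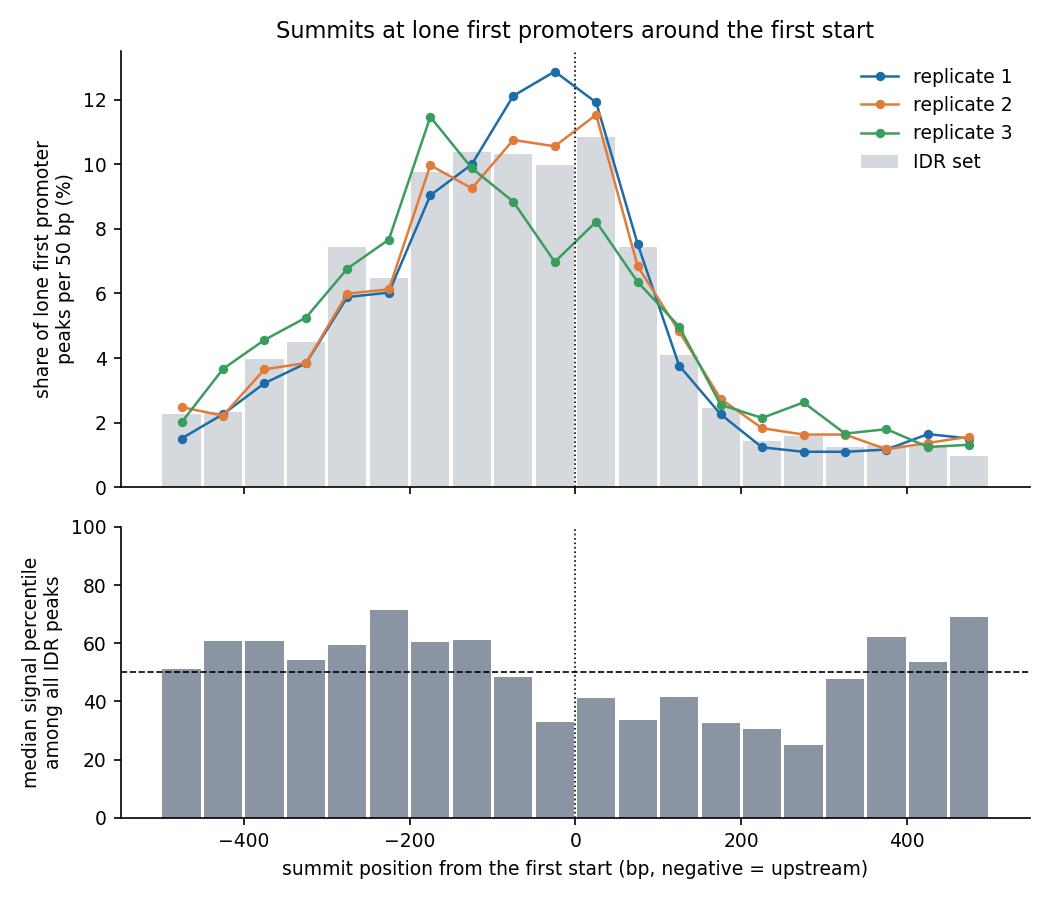
The upper plot gives the share of lone first promoter peaks per 50 bp of distance from the first start, with bars for the IDR set and a line for each replicate. The lower plot gives the median signal percentile of the IDR peaks in each bin, 71.3 at 250 to 200 bp upstream and 33.0 in the 50 bp before the start.

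Strength differed by position. The 310 peaks with a summit within 50 bp of the start had a median rank of 3467 in the IDR set, and 3284.5, 3123 and 4252 in replicates 1, 2 and 3. The 394 peaks with a summit 100 to 250 bp upstream had a median rank of 2176.5, and 2374.5, 2039.5 and 1943.5 in the replicates. The peaks near the start were thus the weaker ones in every replicate, and the gap was widest in replicate 3. The windows around the 2 kinds of summit also differed in sequence. Within 100 bp of the summit a DRE occurred in 11.3% of the peaks near the start and in 2.79% of those upstream, an M1BP site in 6.45% and in 0.508%, and a TATA word in 22.6% and in 47.0%. These windows lie at different distances from the start, and shares at the same positions of unbound starts were not computed. The contrast in sequence thus cannot be told apart from position, and it was not tested.

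A minority of lone first promoters was bound. Of the 10258 protein-coding genes with a lone first promoter, 1472 (14.3%, 13.7 to 15.04) had a member peak within 500 bp, and the replicates gave 14.4%, 14.9% and 14.2%. Of the 3687 genes with a divergent first promoter, 1389 (37.7%, 36.1 to 39.3) had a summit within 500 bp, and the replicates gave 37.1%, 35.4% and 39.8%. Lone first promoters were bound less often in 3 of 3 replicates, by -22.95 ± 2.59 percentage points (SD, n = 3, exact sign-flip permutation p = 0.25). The counts are per gene, and a summit between 2 divergent starts counts for both genes, so that 776 divergent peaks stood behind 1389 genes. At lone first promoters 106 of the 1465 peaks lay near the first start of 2 or more genes. A single summit marked 1368 of the bound genes, 104 had 2 summits and none had more. A further 20 genes had only a summit that the rule leaves out. By chromosome arm, the bound share of lone first promoters was 13.9% on 2L, 15.7% on 2R, 14.4% on 3L, 14.4% on 3R, 13.0% on X and 11.8% on the small chromosome 4, where 8 of 68 genes were bound.

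Bound genes were longer and had more starts than unbound ones. The median span from first to last annotated base was 4038.5 bp for bound genes and 1981.5 bp for unbound genes, and 4054 ± 265 bp and 1979.5 ± 16.0 bp over the replicates (SD, n = 3, exact sign-flip permutation p = 0.25). Genes with 2 or more annotated starts made up 42.6% of bound and 22.96% of unbound genes. Genes whose transcripts all have 1 exon made up 6.86% of bound and 17.8% of unbound genes. A first start inside another protein-coding gene was found in 14.6% of bound and 20.8% of unbound genes. Where the start lay outside other genes, the next gene upstream was at a median of 723 bp for bound and 1013 bp for unbound genes. Each of these 5 differences had the same direction in 3 of 3 replicates. Divided into quartiles by span, 5.30% of the shortest genes, with spans up to 1143 bp, were bound, followed by 11.5%, 17.5% and 23.1% of the longest, with spans from 5625 bp. Genes with 1 start were bound in 11.1%, those with 2 in 22.6% and those with 3 or more in 26.2%. A divergent start of a non-coding gene lay within 500 bp of 270 lone first starts. Of these 18.9% (14.4 to 24.1) were bound, against 14.2% (13.5 to 14.9) of the other 9988, and the replicates gave 18.9% ± 1.70 against 14.4% ± 0.41 (SD, n = 3).

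**Figure D2:**
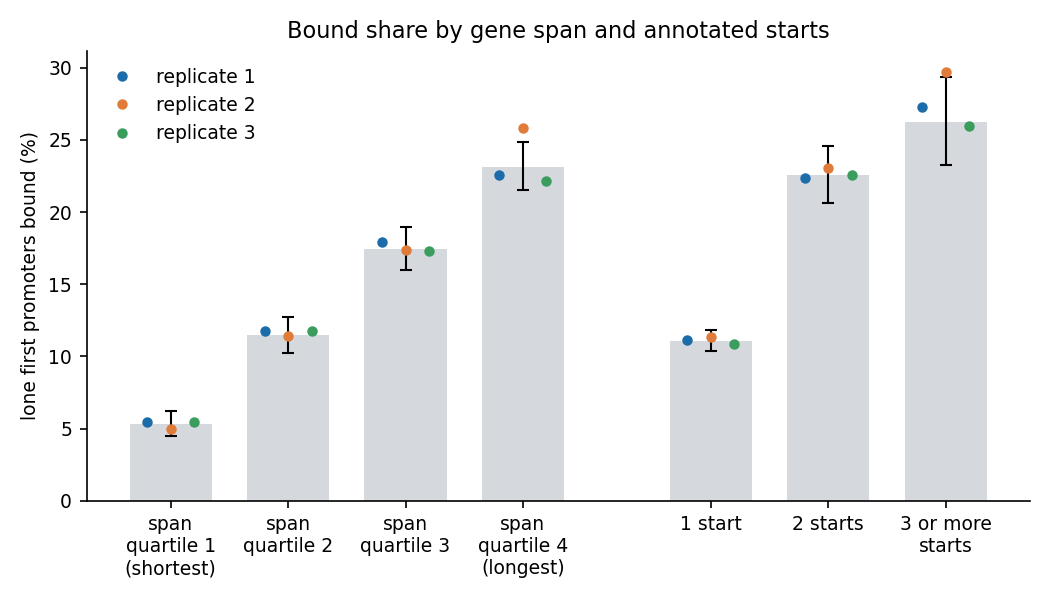
Bars give the share of lone first promoters bound in the IDR set, by quartile of gene span and by number of annotated starts, with exact 95% intervals; points are the replicates. The share was 5.30% in the shortest quartile and 23.1% in the longest.

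Genes of the cytoplasmic ribosome stood highest among 33 gene lists, which are read here against the 14.3% bound over all lone first promoters. Of the 54 cytoplasmic ribosomal protein genes with a lone first promoter, 45 (83.3%, 70.7 to 92.1) were bound, and the replicates gave 79.6%, 83.3% and 75.9%. RpS4 was the strongest, at rank 250 in the IDR set and 199, 169 and 383 in the replicates, with its summit 65 bp downstream of the start. RpS10b followed at rank 267, and 290, 270 and 270 in the replicates, with its summit 28 bp upstream. The median signal percentile of the bound genes was 82.1, against 49.3 over all bound lone first promoters. Their summits sat at a median of 25 bp downstream of the start, 30 of 45 within 50 bp, and only 14 upstream. In replicate 3 they ranked lower, at a median of 1365, against 869 in replicate 1 and 805 in replicate 2, and 32 of the 45 had their lowest rank of the 3 there. Over the 1396 member peaks found in all 3 relaxed lists, 39.5% had their lowest rank in replicate 3. Among the unbound genes, RpL10Aa, RpS5b, RpS10a and RpL37-2 each have a second copy that was bound, as seen after the values were known. These copies were RpL10Ab (rank 2369), RpS5a (rank 721), RpS10b (rank 267) and RpL37-1 (rank 1856).

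Other genes of translation and of the housekeeping complexes were bound less often. Counts here and in the lists that follow cover only the genes of a list with a lone first promoter. These were, for example, 20 of the 73 mitochondrial ribosomal protein genes and 9 of the 25 Mediator genes. Translation factors had 12 of 33 genes bound (36.4%, 20.4 to 54.9). They were led by eIF6, which keeps ribosomal subunits apart (rank 57, and 36, 46 and 118 in the replicates), and by eEF1gamma, a subunit of elongation factor 1 (rank 132, and 122, 162 and 151). Heat shock proteins had 7 of 20 (35.0%), led by the small heat shock gene Hsp27 (rank 264) and Hsp26 (rank 1322). The vacuolar proton ATPase had 6 of 21 (28.6%), with Vha13 at rank 1680 and Vha100-2 at rank 2516. Mitochondrial ribosomal proteins had 4 of 20 (20.0%), led by mRpL41 and mRpL19 (rank 1726). The respiratory chain and ATP synthase had 7 of 51 (13.7%), led by ND-ASHI of complex I (rank 299) and ATPsynC (rank 2225). The proteasome had 2 of 28 (7.14%), Rpn11, a deubiquitinase of its lid (rank 1825), and Rpn12 (rank 2262). Glycolysis had 3 bound of only 5 genes with a lone first promoter, out of 11 in the list. They were Gapdh2, Hex-A, a hexokinase (rank 51), and Ald1, an aldolase (rank 4656). Single genes were bound of the aminoacyl-tRNA synthetases (AlaRS, rank 2872, of 13), of Mediator (MED4, rank 2271, of 9) and of mitochondrial import (Tom7, rank 557, of 11). The summit of rank 557 lay at -389 bp from Tom7 and at -120 bp from CG8229, and a second one at -190 bp from Tom7 ranked 2550. In the IDR set none was bound of 8 TFIID and of 8 nuclear pore genes with a lone first promoter, out of 15 and 21 in the lists. This allows shares of up to 37.5%. Replicates 1, 2 and 3 gave 1, 0 and 1 bound TFIID genes and no nuclear pore gene. Rab GTPases had 3 of 17 (17.6%), led by Rab1 at rank 4276 and Rab11 at rank 4494. The list named cell cycle and replication, matched by gene symbol rather than by function, had 4 of 26 (15.4%). Its bound genes were CycT (rank 1207), Mcm2 (rank 1750), Cdk8 (rank 3410) and BubR1 (rank 3865).

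**Figure D3:**
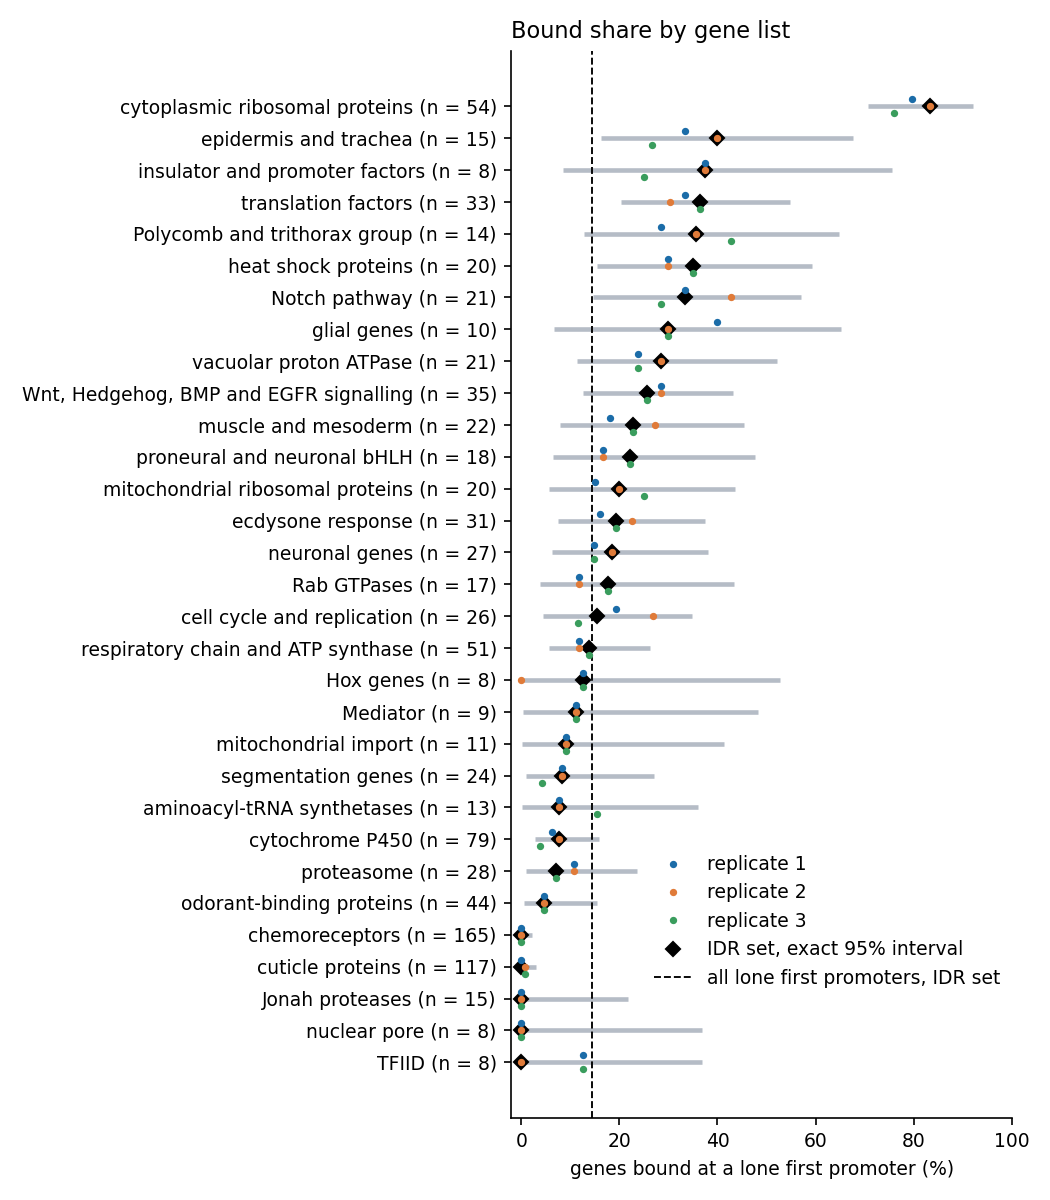
Share of the genes of each list with a lone first promoter that were bound, for lists of 8 or more genes. Diamonds with bars are the IDR set with exact 95% intervals, points are the replicates, and the dashed line is the 14.3% of all lone first promoters. The interval of the cytoplasmic ribosomal proteins, 70.7 to 92.1%, lies above that of every other list shown except the insulator and promoter factors.

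Lists of developmental genes had bound shares from 2 of 24 to 6 of 15 genes, with wide intervals. Epidermal and tracheal genes had 6 of 15 bound (exact 95% interval 16.3 to 67.7%), led by dysf, a bHLH-PAS factor of tracheal fusion cells (rank 2496), and shg, the E-cadherin gene (rank 3035). Polycomb and trithorax group genes had 5 of 14 (35.7%), led by ph-p and Psc (rank 2285). Insulator and promoter factors had 3 of 8, led by BEAF-32 (rank 1719) and CTCF (rank 3636). Notch pathway genes had 7 of 21 (33.3%, 14.6 to 57.0), led by aph-1, a subunit of γ-secretase (rank 489), and E(spl)m3-HLH, a bHLH repressor (rank 684). The summit of rank 489 lay at -427 bp from aph-1 but nearer to Snx21, at -141 bp, and a second one at -228 bp from aph-1 ranked 1434. Glial genes had 3 of 10, led by moody, a receptor of the blood-brain barrier (rank 145), and Nrt (rank 1664). Wnt, Hedgehog, BMP and EGFR signalling had 9 of 35 (25.7%), led by the feedback inhibitors nkd (rank 670) and aos (rank 738). Muscle and mesoderm genes had 5 of 22 (22.7%), led by sls, a giant muscle protein (rank 422), and tin, the factor of heart formation (rank 544). The list of proneural and neuronal bHLH genes had 4 of 18 bound (22.2%, 6.41 to 47.6), and the replicates gave 16.7%, 16.7% and 22.2%. The bound genes were net (rank 717), emc, an HLH protein that lacks a DNA-binding region (rank 1965), Oli (rank 4585) and da, the common bHLH partner (rank 4802). In replicates 1, 2 and 3, Oli ranked 19925, 2994 and 2534, and da ranked 4013, 17827 and 3740. Neuronal genes had 5 of 27 (18.5%), led by elav and Syx1A, a syntaxin (rank 3103), and ecdysone response genes 6 of 31 (19.4%), led by E23 (rank 108) and the nuclear receptor gene Hr78 (rank 427). Hox genes had 1 of 8, Dfd (rank 4681), and segmentation genes 2 of 24 (8.33%), hry (rank 2749) and cad (rank 4986). In replicates 1, 2 and 3 the epidermal and tracheal list gave 5, 6 and 4 of 15 genes and the Notch pathway 7, 9 and 6 of 21. None of these developmental lists was tested against the 14.3% of all lone first promoters, and their intervals cover counting error only.

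Large families of terminally expressed genes had few or no bound members. None of 165 chemoreceptor genes was bound, which allows a share of up to 1.82%, and none in any replicate. None of 117 cuticle protein genes was bound, which allows up to 2.56%, and the replicates gave 0%, 0.855% and 0.855%. None of 15 Jonah protease genes was bound, which allows up to 20.0%. Odorant-binding proteins had 2 of 44 (4.55%, 0.555 to 15.5), Obp99b (rank 1443) and Obp83g (rank 2582). Cytochrome P450 genes had 6 of 79 (7.59%, 2.84 to 15.8), led by Cyp6u1 (rank 351) and Cyp9f2 (rank 3955). Both of these summits lay nearer to the first start of another gene, the one at Cyp6u1 3 bp from that of Ufsp1 and the one at Cyp9f2 at -93 bp from that of CG5167. None of 3 PR domain genes was bound. Prdm13 itself had no member peak, and the nearest IDR summit lay at -5303 bp from its start (3L, 6163127), with rank 833. In the replicates' relaxed lists of 30000 peaks the nearest summits lay at -1081, -2907 and -2963 bp.

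The order of the lists was followed down the pooled list of 30000 peaks, whose strongest peaks are the IDR set. The authors label this list as peaks and background for the IDR step, so entries beyond the IDR set can be background. In this paragraph bound means only that a listed summit lay within 500 bp, and shares beyond the IDR set are not rates of binding. Lone first promoters were bound in 1.51% at 500 peaks and in 41.2% at 30000, and divergent first promoters in 5.32% and in 62.1%. Cytoplasmic ribosomal protein genes were bound in 14.8% at 500 peaks, 64.8% at 2000 and 92.6% at 30000. Chemoreceptor genes were at 0 down to 10000 peaks and reached 3.03% at 30000, when 5 of 165 were bound. Cuticle protein genes reached 19.7% there. Cytochrome P450 genes had 1.27% at 2000 peaks and 48.1% at 30000, above the 41.2% of all lone first promoters. Lone first promoters held 28.8% of the summits among the first 500 peaks, 24.6% of the first 2000, 25.6% of the IDR set and 17.3% of all 30000.

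**Figure D4:**
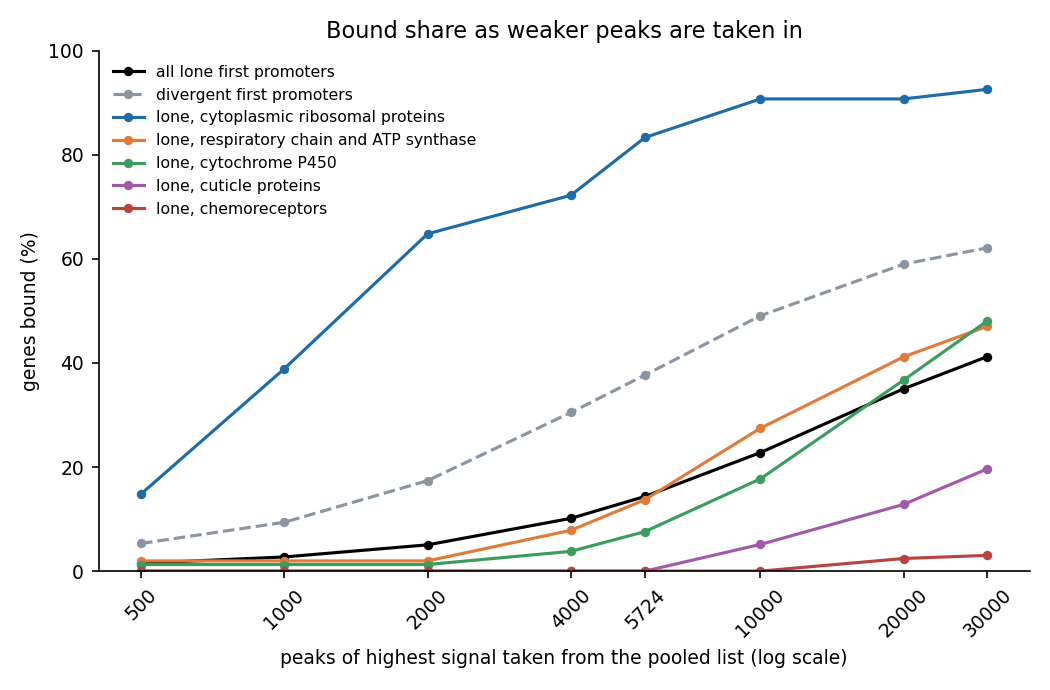
Share of genes bound against the number of strongest pooled peaks taken (log axis), for all lone first promoters, divergent first promoters and 5 gene lists. Bound means a listed summit within 500 bp, and entries beyond the IDR set can be background. At 30000 peaks the ribosomal protein genes are at 92.6%, all lone first promoters at 41.2% and the chemoreceptors at 3.03%.

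First starts were set against later starts of the same gene in the 1400 genes with a lone first promoter and at least 1 other start over 1000 bp away. The first start was bound in 337 genes (24.1%, 21.9 to 26.4) and an internal start in 340 (24.3%, 22.1 to 26.6). Of these genes, 226 were bound at the first start only, 229 at an internal start only, 111 at both and 834 at neither. The first start minus an internal start was 0.929, 1.71 and -0.643 percentage points in replicates 1, 2 and 3 (exact sign-flip permutation p = 0.5), so the replicates differed in direction. A gene can have several internal starts, each of which could be bound, whereas the last start alone was bound in 16.1%. The strongest genes bound at both were ph-p (rank 27), Sox14, a factor of ecdysone-driven remodelling (rank 71), and brwl (rank 82).

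Known promoter elements were searched within 100 bp of each summit on both strands. They were compared with windows of the same size centred 500 bp upstream and 500 bp downstream, averaged as flanks. The rule keeps summits near a first start, so every contrast with flanks also compares distance from the start. It therefore cannot show what sets bound promoters apart from unbound ones. The DRE (TATCGATA) was found at 80 of the 1465 summits (5.46%, 4.35 to 6.75), against 1.43% of upstream and 0.0683% of downstream flanks. In replicates 1, 2 and 3 it was at 5.75%, 5.35% and 4.49% of summits, higher than in the flanks by 4.21 ± 0.586 percentage points (SD, n = 3, exact sign-flip permutation p = 0.25). The M1BP site (GGTCACACT) was at 2.94% of summits against 0.751% of upstream flanks, and the Ohler 7 core (CATCNCTA or CATCNCTG) at 8.33% against 3.41%. The Ohler 6 core (GTATATTT or GTATTTTT) was at 8.26% against 6.28%. At least 1 of these 4 elements was at 22.3% of summits (20.2 to 24.5) and 11.0% of upstream flanks. The TATA word (TATAAA) was at 34.3% of summits and 31.3% of upstream flanks, and at 14.1% of downstream flanks. GC content was 38.4% at summits, 38.8% in upstream flanks and 46.4% in downstream flanks, so a contrast with the downstream side also compares base composition. Lower at summits than in upstream flanks were the Pho core (GCCAT), 24.8% against 30.4%, and the Zelda site (CAGGTA), 3.55% against 4.91%. E-boxes, the sites of bHLH factors, were at 11.7% of summits as CAGCTG against 7.65% of upstream flanks, with 12.6% in downstream flanks. The CACGTG form was at 2.73% of summits, between the 2.32% of upstream and the 3.28% of downstream flanks.

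The same elements set lone first promoters beside the other peaks. The classes also differ in summit position, with 21.2% of lone and 30.8% of divergent summits within 50 bp of the start. Among lone peaks that near the start, the DRE was at 11.3%. The contrasts between classes below thus cannot be told apart from position. The DRE was at 5.46% of lone first promoter summits, 11.1% of divergent ones and 0.293% of those away from promoters. The M1BP site was at 2.94%, 3.35% and 0.0367%, and the Ohler 7 core at 8.33%, 14.4% and 2.09%. The GAGA word (GAGAG) was at 26.7% of lone first promoter summits, more often than the 15.9% of divergent ones and less often than the 37.1% at internal promoters only. It was at 23.3% of summits away from promoters, and at 19.1% of upstream and 25.7% of downstream flanks of lone summits. Over the replicates GAGA was at 27.6% ± 2.70 of lone and 15.9% ± 1.07 of divergent summits (SD, n = 3, exact sign-flip permutation p = 0.25). The DRE over the replicates was at 5.197% ± 0.644 of lone and 9.82% ± 0.717 of divergent summits (exact sign-flip permutation p = 0.25). Mean GC content was 38.4% at lone, 34.9% at divergent and 36.2% at distal summits.

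**Figure D5:**
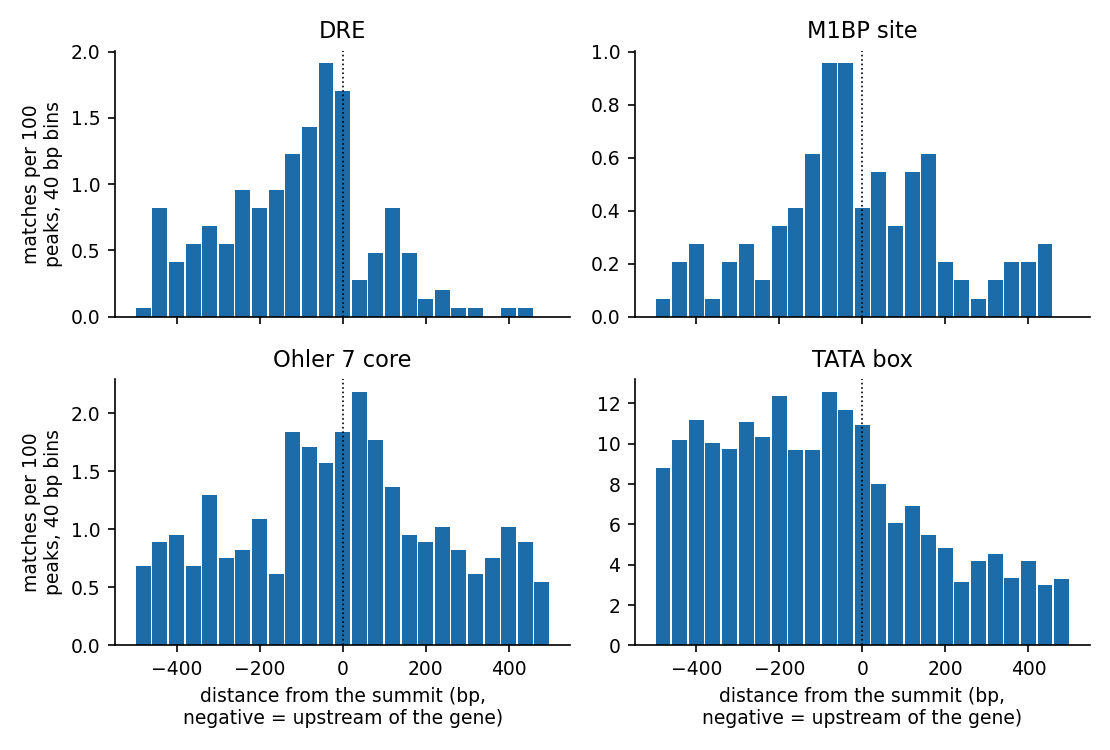
Matches per 100 lone first promoter peaks in 40 bp bins of distance from the summit, on the strand of the gene, for the DRE, the M1BP site, the Ohler 7 core and the TATA word. DRE matches reach 1.91 per 100 peaks at 60 to 20 bp upstream of the summit, and the vertical axes differ between panels.

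The matches had their own place relative to the start. The 85 DRE matches within 100 bp of a summit lay at a median of 43.5 bp from it, and at -44.5 bp from the start, with quartiles at -73.5 and -5.5 bp. The 47 M1BP matches lay at a median of 50 bp from the summit and 0 bp from the start. TATA matches lay at a median of -176.5 bp from the start, farther upstream than the 45 to 15 bp at which a TATA box usually lies. The genes of highest signal with a DRE at the summit were Alg3 (rank 50), eIF6 (rank 57), eEF1gamma (rank 132), shown above, and CG11151 (rank 205). Those with an M1BP site were led by the ribosomal protein genes RpL37A (rank 621), RpS23 (rank 676) and RpL27A (rank 788).

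At the starts themselves, elements were compared between bound and unbound lone first promoters, from 200 bp upstream to 50 bp downstream. The DRE was at 9.10% of 1472 bound and 5.52% of 8786 unbound starts (6.03% of all), the M1BP site at 6.45% and 3.33% (3.78% of all), and the Ohler 7 core at 10.8% and 5.83% (6.541% of all). GAGA was at 37.6% of bound and 27.6% of unbound starts (29.0% of all). A TATA box in its usual place, 45 to 15 bp upstream on the sense strand, was at 4.96% (3.91 to 6.195) of bound and 11.2% (10.6 to 11.9) of unbound starts (10.3% of all). Over the replicates it was at 4.93% ± 0.207 of bound and 11.2% ± 0.0144 of unbound starts (SD, n = 3, exact sign-flip permutation p = 0.25), lower in 3 of 3. The TCT initiator core (CCTTTC with C or T at its first and last letter), within 10 bp of the start on the sense strand, was at 3.94% of bound and 1.78% of unbound starts (2.09% of all). Of its 214 starts 58 (27.1%, 21.3 to 33.6) were bound, and 22 belonged to ribosomal protein genes. An Initiator (TCAGTC or TCATTC, or either with T as its last letter) in the same window was at 17.0% of bound and 14.2% of unbound starts (14.6% of all). In the longer window on both strands these short words went the other way, the Initiator at 55.2% of bound and 60.9% of unbound starts and the TCT core at 49.3% and 52.2%.

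A search of all 6-letter words within 100 bp of the summit returned words that overlap these elements, among others. Of the 1754 words, joined with their reverse complements, that were in at least 5% of summits or flanks, CGATAG had the highest ratio. It was at 13.2% of summits and 5.22% of flanks (6.62% of upstream flanks), a ratio of 2.52, and at 13.3% ± 1.34 of summits in the replicates (SD, n = 3). TATCGA, part of the DRE, was at 17.5% against 8.05% (10.2% of upstream flanks). ACACTG, which overlaps the end of the M1BP site, was at 17.1% against 8.05% (7.65% of upstream flanks). The full DRE was at 5.46% and the full M1BP site at 2.94% of summits, so most windows with either word lacked the full element. CCAGGA had the lowest ratio, 0.179, at 1.71% of summits and 9.52% of flanks, of which 7.44% was the upstream and 11.6% the downstream value. CGATAG and the DRE both hold the BEAF-32 core (CGATA), which was at 33.7% of summits, 24.8% of upstream flanks and 44.3% of divergent summits.

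Near the 500 bp limit, the outermost summits kept were those of CG43066 (rank 2847) and CG13917 (rank 4875), both 500 bp upstream. The first ones outside were those of Diap1, an inhibitor of apoptosis, 1 bp beyond it downstream (rank 1659), and Ugt37C1, 1 bp beyond it upstream (rank 5129).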

How the data were processed

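Per the deposited derivation records, the authors made 30000 relaxed peaks for each of 3 replicates and for the pooled replicates, each against 1 control file, and from these an IDR set, all on dm6. Peaks were ordered within a list by the authors' deposited signal value, which served no other purpose. The deposited −log10 q-value was not used for ranking. The deposited summit offset gave the summit. The aligner, the caller of the peaks, the IDR limit and the read numbers are not given in the sources used here.

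Starts came from Ensembl 115 (BDGP6.54, the coordinates of dm6) for 13945 protein-coding genes on 6 arms. Replicate values came from the strongest peaks of the replicate's relaxed list, as many as the IDR set holds (the top list). Support by a replicate meant that a summit of its top list lay within 200 bp. Differences were tested by an exact two-sided sign-flip permutation over the 3 replicates, which was checked on a worked example with a known answer. The member rule was checked on simulated summits and the motif search on planted words. Intervals are exact (Clopper-Pearson, 95%), and for a share of 0 the limit given is 3 counts over the genes of the list; both cover counting error only. A total of 19 motifs were searched. The replicates are labelled as separate biosamples but share the control, and their lists are not independent of the IDR set. The members, lists and motifs were chosen with earlier results of these data known, and the ribosomal list was widened by symbols seen in the annotation. Named genes were the tagged gene, the 12 strongest peaks supported in all 3 replicates, the 2 strongest per list or element, the 3 strongest without support and the 2 summits on each side of the limit. Further bound genes of some lists, the words TGGGCGTA and CACAGTGG and the ribosomal protein copies were named after their values were seen. Not every unbound gene is named here. Python 3.11.15 was used, with numpy 2.4.6, pandas 2.3.3, scipy 1.17.1 and matplotlib 3.10.9.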

Additional observations from a re-analysis of the deposited data

How the results depend on the processing

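The 8 main results were recomputed under 13 other settings. Of 83 values, 57 kept their direction or stayed within the limit set for them, 22 moved by more than the SD of the replicates (a count by over 1.5 times) and 4 turned round. In every setting run, lone first promoters were bound less often than divergent ones and most member peaks lay upstream of the start. The DRE was more frequent at summits than in flanks throughout, a contrast that also compares distance from the start. The member count was 959 with starts within 200 bp, 706 among peaks above the median signal and 917 with support by all 3 replicates. The bound share of lone first promoters was 9.51% with starts within 200 bp, 18.2% within 1000 bp, 13.0% with divergent starts counted to 1000 bp, 7.11% above the median signal, 9.24% with support by all 3 and 13.6% with 1 summit per 1000 bp. It was 10.3% to 10.6% with each replicate left out, sets that keep only peaks supported by the other replicates and are thus smaller. The median summit position was -39 bp with starts within 200 bp and -137.5 bp above the median signal, and without replicates 1, 2 and 3 it lay between -117 and -93 bp. Ribosomal protein genes were bound in 77.8% (200 bp), 74.3% (divergent to 1000 bp), 68.5% (above the median signal), 66.7% (all 3 replicates), and in 68.5% to 72.2% with each replicate left out. First minus internal starts turned to 2.71 percentage points at 200 bp, 4.43 at 1000 bp, 0.373 for starts over 2000 bp apart and 0.214 without replicate 3 (-0.857 to 0.214 with each left out). The cause of these changes was not tested. The sign-flip tests pair values within a replicate. No paired analysis was possible because there was 1 group, so that no samples pair across groups. Read depth is unknown, so a promoter without a peak may lack binding or depth.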

Other observations

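The upstream bases of Ugalt and CG14100, the 2 strongest lone first promoters, share the word TGGGCGTA, which was noticed after the sequences were seen. It lay within 100 bp of 7 of the 1465 summits (0.478%), 7 upstream flanks and 6 downstream flanks, so it was no more frequent over the class as a whole. Among the 50 strongest member peaks 4 held it, at Ugalt (rank 2), CG14100 (rank 5), CG31145 (rank 41) and Hpf1 (rank 79). The other 3 were those of Sugb (rank 2204), Fkbp12 (rank 3289) and pnut (rank 4786). In the 100 strongest member peaks of replicates 1, 2 and 3 the word occurred in 5, 5 and 4. It was picked from the strongest members, so these counts are not independent values. Over all IDR peaks it was at 24 (0.419%), at 5 of the 50 strongest and at 6 of the 100 strongest.

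The word CACAGTGG, noticed in the same way, lay at 37 member summits (2.53%, 1.78 to 3.46) and at 0.819% of flanks. It was at 9 of the 100 strongest member peaks (9.0%, 4.20 to 16.4) and 2.05% of the others, and in the replicates' 100 strongest at 9, 6 and 10. It was picked from the sequences of the strongest members, so its count there is no independent value. Over all IDR peaks it was at 178 (3.11%) and at 6 of the 100 strongest. The strongest holders were ph-p (rank 27), Glyp (rank 96), fkh, a forkhead factor (rank 141), and CG7737 (rank 185).

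Elements differed in how they ran with signal. From the strongest to the weakest quartile of member peaks, the TATA word was at 43.6%, 31.7%, 31.4% and 30.3%, and CGATAG at 8.72%, 13.4%, 15.6% and 15.03%. The DRE was at 5.99%, 5.46%, 5.46% and 4.92%. The M1BP site, found at only 43 summits in all, was at 1.91%, 2.46%, 4.37% and 3.01%. Signal also ran with summit position. The peaks 100 to 250 bp upstream had a median rank of 2176.5 and a TATA word in 47.0%, those within 50 bp of the start 3467 and 22.6%. The trends with signal thus cannot be told apart from position, and they were not tested.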
